A study of Mus musculus with 4 samples.

Results

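The annexins described here are Anxa1, Anxa2, Anxa3, Anxa4, Anxa5, Anxa6, Anxa7, Anxa8, Anxa9 and Anxa11 of the mouse, found by gene symbol in array data of NMuMG cells, an epithelial line from normal mouse mammary gland. They are 10 of the 14847 genes that carried a single symbol on the gene-level array, and 156 probesets, each covering an exon or a piece of one, carried their symbols on the exon-level array. The cells were either given 1 ng/ml recombinant human TGF-beta1 for 24 h or left untreated, in serum- and insulin-containing medium, and total RNA was labelled with biotin for Affymetrix exon arrays. Each condition had 1 array at each level. Since the design text names 2 samples, the gene-level and the exon-level arrays were taken to describe the same pair of cultures, so no value below has a replicate check and no p-value was computed. The members were found by symbol, but the family was selected on earlier results for the same gene-level and probeset differences, and Anxa10 was left out with those results known. The differences and counts below are therefore descriptions.

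Annexins are soluble proteins that settle on membranes rich in acidic phospholipids, chiefly phosphatidylserine, when cytosolic calcium rises. A conserved core of repeats carries the calcium and lipid sites, and a variable N-terminal tail carries the binding sites for S100 proteins and other partners. In epithelia they are known for roles in vesicle traffic, repair of torn plasma membrane, links between membrane and actin, and cell-surface plasmin formation. TGF-beta is a growth factor that can turn NMuMG cells from an epithelial to a mesenchymal form.

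Upstream sequence is given for Anxa11 and Anxa4, the members with the lowest differences, and for Anxa5, the member with the highest. Each run holds the 250 bases before the outermost annotated start, 5′ to 3′ on the gene's strand, from RefSeq (GRCm38.p6), in which 8 of the 10 members had an entry (all but Anxa3 and Anxa6). Capitals mark matches to 4 motifs searched on both strands: GTCTAGAC (the Smad palindrome), CAGACA (the Smad CAGA box), CACCTG (the E-box bound by Snail and Zeb repressors) and TGANTCA (AP-1).
Anxa11, chr14:25841905-25842154, plus strand: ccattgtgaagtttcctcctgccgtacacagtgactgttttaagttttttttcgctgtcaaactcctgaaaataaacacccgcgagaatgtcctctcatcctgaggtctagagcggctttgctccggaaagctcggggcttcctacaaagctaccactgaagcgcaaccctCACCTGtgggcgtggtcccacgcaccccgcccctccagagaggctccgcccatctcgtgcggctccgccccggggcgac
Anxa4, chr6:86793585-86793834, minus strand: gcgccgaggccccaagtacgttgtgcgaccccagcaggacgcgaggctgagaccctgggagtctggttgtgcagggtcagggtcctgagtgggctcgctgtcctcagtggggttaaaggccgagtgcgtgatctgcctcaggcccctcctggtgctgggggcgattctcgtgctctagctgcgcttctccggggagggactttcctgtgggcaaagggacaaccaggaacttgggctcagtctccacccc
Anxa5, chr3:36475888-36476137, minus strand: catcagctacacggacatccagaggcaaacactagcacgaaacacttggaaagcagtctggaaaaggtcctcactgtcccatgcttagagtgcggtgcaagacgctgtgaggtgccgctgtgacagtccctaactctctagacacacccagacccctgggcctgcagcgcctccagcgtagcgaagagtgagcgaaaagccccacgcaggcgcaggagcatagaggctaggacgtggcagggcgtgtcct
The Anxa11 run held 1 match, a CACCTG from 79 to 74 bases before the start, and the runs of Anxa4 and Anxa5 held none. Among all 32851 windows of this length, 17.2% held CACCTG or its complement, 17.1% the CAGA box, 6.75% the AP-1 motif and 0.167% the palindrome. Of the other members, Anxa2 had an AP-1 match, Anxa8 and the second start of Anxa9 a CAGA box each, and the second start of Anxa7 CACCTG at 2 places. A match describes these letters and does not show a bound site, and no motif was found in both members that were lower by at least 2-fold.

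Differences are TGF-beta minus untreated on the scale log2(intensity + 1), on which 1 is a 2-fold change. A gene was at level where the larger of its 2 intensities reached 124, the median of all gene-level values. Over the 9159 genes at level the median difference was −0.27, so a gene with a difference of 0 stood above most genes of these arrays. Of those genes, 797 (8.70%) were lower by 2-fold or more and 209 (2.28%) higher by as much, so that 20.8% of the genes past this rule were higher. Centring took off the median difference over all 23332 transcript clusters (−0.14), which left the genes at level at a median of −0.14. The shares were then 6.05% lower and 2.94% higher, and 32.7% of those past the rule were higher. With quantile normalization 4.43% were lower and 3.74% higher (45.8% of those past the rule), and with a lowess curve of difference on level taken out 4.77% were lower and 3.60% higher (43.0%). The TGF-beta response genes measured were all past the rule, 4 higher and 3 lower, with Ldlrad4, a dampener of the pathway, at 1.92 and Id2, an inhibitor of helix-loop-helix factors, at −2.03. Of 5 epithelial markers measured, Cdh1 (−1.29), Krt18 (0.20) and Krt19 (−2.99) were at level, and Epcam and Cldn7 were below it in both gene-level arrays. The part of these shifts in the annexin values was not tested. Of 5 luminal and milk markers measured, Gata3 alone was at level. Of the measured markers of myoepithelial cells, fibroblasts, leukocytes and endothelium, none was at level at gene level, and of 3 adipocyte markers Plin1 alone was. At exon level some markers below the gene-level rule had probesets that reached the median of all probeset values, such as Krt14 (8), Krt5 (7) and Cldn7 (4). Others, such as Dcn and Lum, had none, so the gene-level rule does not show that a marker was absent. Fewer cells making an RNA and less RNA per cell cannot be told apart in such bulk samples.

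All 10 annexins were at level, and they did not move as a family. With TGF-beta, Anxa11 and Anxa4 were lower by at least 2-fold, none was higher by that much, and 8 lay within 2-fold. The 2 lower members are 20% of the family, beside 8.70% of all genes at level, and the count is too small to read a share from. The members' median difference was −0.40, beside −0.27 over all genes at level. Differences ran from −1.49 for Anxa11 to 0.36 for Anxa5, with 7 members below 0 and 3 above it, while 72.3% of all genes at level lay below 0. Against the median of all genes, 6 members were lower and 4 higher. In order from low to high the members were Anxa11, Anxa4, Anxa9, Anxa3, Anxa1, Anxa7, Anxa2, Anxa6, Anxa8 and Anxa5. With 1 array per condition there is no spread between cultures against which neighbours in this order could be told apart.

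**Figure D1:**
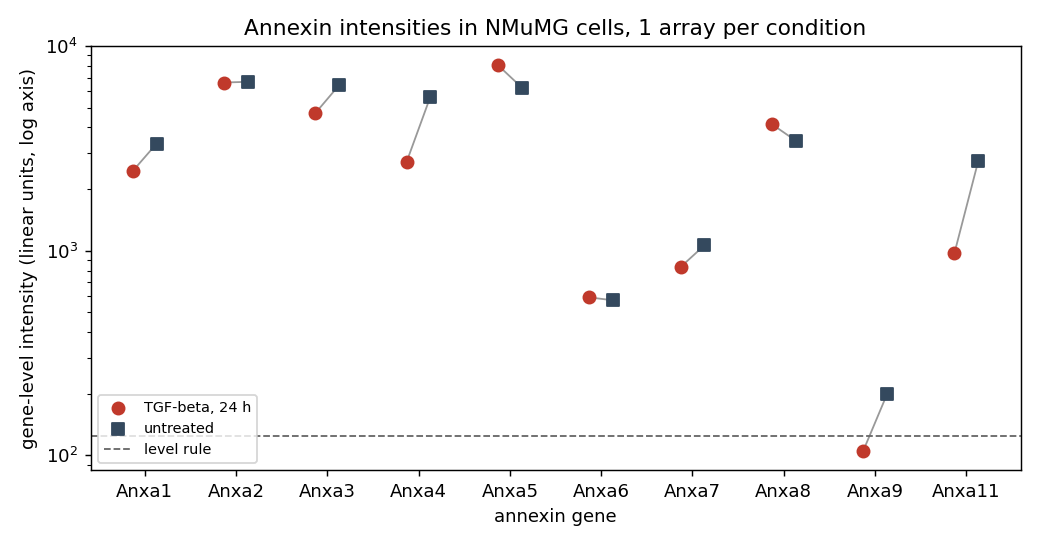
Gene-level intensity (linear units on a log axis) of each annexin in TGF-beta cells (red circles) and untreated cells (dark squares), 1 array each, with the level rule of 124 as a dashed line. For each gene the TGF-beta point is on the left and the untreated point on the right. Among members above the line in both arrays, Anxa11 and Anxa4 show the widest gaps, with the TGF-beta point lower. Anxa9 crosses the line. Heights of different genes are not comparable, because their probes differ.

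Anxa11 and Anxa7 are the annexins with long, low-complexity N-terminal tails. Anxa11 tethers RNA granules to lysosomes and takes part in the last step of cell division. It had a gene-level intensity of 975 in TGF-beta cells and 2738 in untreated cells, a 2.81-fold lower value and a log2 difference of −1.49. Only 2.82% of genes at level had a lower difference. Each of the 16 probesets was lower with TGF-beta, 15 by at least 2-fold, with a median of −1.53 ± 0.48 (SD between probesets of the gene, not between cultures). Anxa7, or synexin, promotes fusion of secretory granules. It had 832 in TGF-beta cells and 1062 in untreated cells, a difference of −0.35. Its 16 probesets all lay below 0, at −0.33 ± 0.23 (SD), though its gene-level value shrank to −0.057 under quantile normalization and −0.048 without the lowess curve. These 2 related genes thus shared a sign but not a size, and the smaller difference lay close to that of the median gene.

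Anxa4 is an annexin of secretory and absorptive epithelia that regulates a calcium-activated chloride conductance. Its intensity was 2723 in TGF-beta cells and 5665 in untreated cells, 2.08-fold lower, with a difference of −1.06. Its 13 probesets at level were all lower, at −0.997 ± 0.20 (SD), and 6 of them passed the 2-fold rule. Anxa4 thus lay at the edge of that rule, and after removal of the curve it was at −0.99 and after centring at −0.92, inside it. A further 2 probesets of Anxa4 were dim in both arrays, below the exon-level rule of 265, and had larger differences. Probeset 4426439 had 12.96 in TGF-beta cells and 257 in untreated cells (−4.21), and probeset 5056684 had 37.3 in TGF-beta cells and 245 in untreated cells (−2.69). Which stretches of Anxa4 these 2 probesets cover is not known here, since the probesets carry no positions.

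Anxa9 is an atypical annexin whose core lacks most calcium-binding residues. It was the only member below the level rule in an array, with 105 in TGF-beta cells and 198 in untreated cells, a difference of −0.91. Only 5 of its 16 probesets were at level, and these had a median of −1.22 ± 0.43 (SD), with 3 lower by at least 2-fold. All 5 passed the rule through the untreated array alone, with 130 to 201 in TGF-beta cells, so the rule itself favoured lower values. Over all 16 probesets, with no such rule, the median was −0.79. Of the 11 probesets below level, 10 were lower and 1 was higher with TGF-beta. Under quantile normalization the 5 at level had a median of −0.996. The sign was thus the same at gene level and over the probesets, and the size of this difference is uncertain.

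Anxa1 and Anxa3 had nearly the same moderate difference. Anxa1 is a glucocorticoid-induced protein that dampens inflammation through formyl peptide receptors and restrains phospholipase A2. It had 2453 in TGF-beta cells and 3334 in untreated cells, a difference of −0.44, with all 13 probesets lower at −0.49 ± 0.24 (SD). Anxa3, first known from granulocytes, had 4703 in TGF-beta cells and 6443 in untreated cells, a difference of −0.45. Its 15 probesets were all lower, at −0.44 ± 0.33 (SD), and 14 of them lay within 2-fold. Lower differences than theirs were found in 35.5% (Anxa1) and 34.6% (Anxa3) of genes at level, so both lay near the middle of the arrays.

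Anxa2 and Anxa6 had differences near 0. Anxa2 binds S100a10 in a heterotetramer that links membranes to actin and gathers plasminogen and its activator at the cell surface. It had 6633 in TGF-beta cells and 6686 in untreated cells, a difference of −0.01, with 8 probesets higher, 7 lower and a median of 0.01 ± 0.15 (SD). Since the median gene was lower, 71.4% of genes at level had a lower difference than Anxa2, and its sign turned with centring (0.13). An Anxa2 pseudogene is listed in RefSeq, and whether its RNA adds to these probesets was not tested. Anxa6, which has a core of doubled length and acts in cholesterol and endosome traffic, had 591 in TGF-beta cells and 572 in untreated cells (0.05). Of its 19 probesets at level 13 were higher and 6 lower, with a median of 0.19 ± 0.49 (SD), the widest spread of the family. The 4 probesets of Anxa6 below level were all lower with TGF-beta. Over all 23, with no level rule, the median was 0.053, so its size depended on that rule. Anxa6 also depended on scaling, at 0.43 under quantile normalization and also without the lowess curve.

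Anxa5 and Anxa8 were the members with positive values at both levels and nearly all probesets higher. Anxa5 binds exposed phosphatidylserine tightly, is anticoagulant, and serves as a stain for dying cells. It had 8058 in TGF-beta cells and 6270.05 in untreated cells, a difference of 0.36, and 12.6% of genes at level had a higher one. Its 15 probesets all lay above 0, from 0.10 to 0.67, at a median of 0.36 ± 0.16 (SD). Anxa8, an anticoagulant annexin found on late endosomes, had 4150.1 in TGF-beta cells and 3450.3 in untreated cells (0.27). Of its 12 probesets 11 were higher, at 0.21 ± 0.13 (SD), the narrowest spread of the family. Neither reached 1.5-fold, a size that 6.25% of genes at level reached on the higher side and 25.3% on the lower side, where Anxa11, Anxa4 and Anxa9 passed it. Anxa5 and Anxa8 stayed above 0 under each of the 3 scalings tried (0.32 to 0.50 for Anxa5 and 0.34 to 0.40 for Anxa8).

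**Figure D2:**
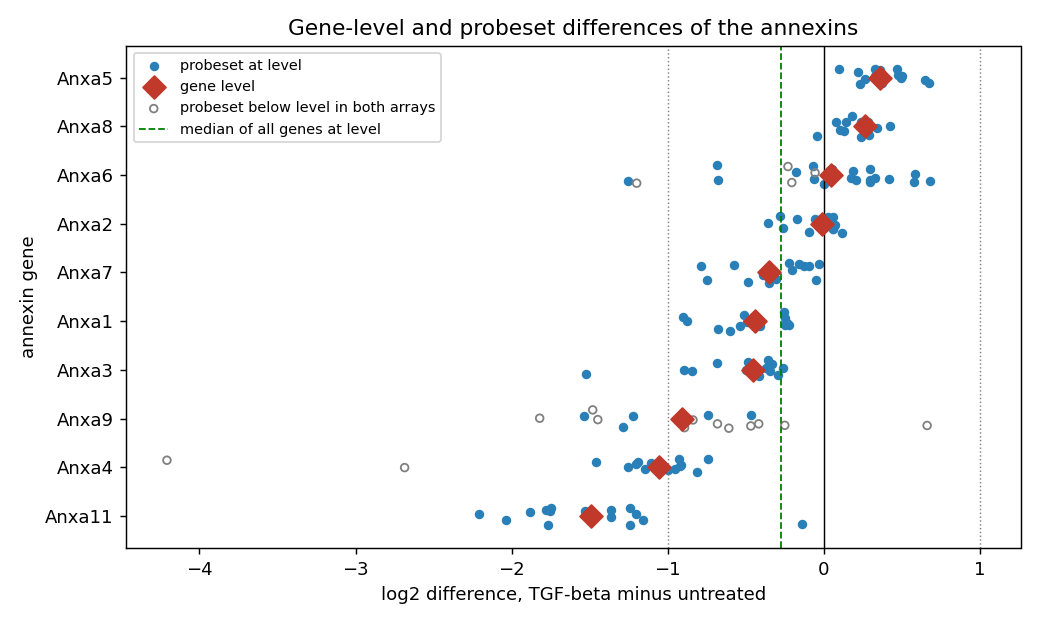
Log2 difference, TGF-beta minus untreated, of each annexin at gene level (red diamonds) and in its probesets (filled blue at level, open grey below level in both arrays), with the median of all genes at level as a green dashed line and 2-fold as dotted lines. Most at-level probesets lie near their gene's diamond, with wider scatter in Anxa6, Anxa9 and Anxa11, and the below-level probesets of Anxa4 lie far to its left. All 16 of Anxa11 and the 13 at-level ones of Anxa4 lie left of 0, and all 15 of Anxa5 lie right of it.

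Across the family, 139 of the 156 probesets were at level, and the 17 others belonged to Anxa9 (11), Anxa6 (4) and Anxa4 (2). Of the 139, 26 (18.7%) were at least 2-fold lower with TGF-beta and none 2-fold higher, beside 11.6% and 3.55% of all named probesets at level. Anxa11 alone supplied 15 of the 26, Anxa4 6, Anxa9 3, and Anxa3 and Anxa6 1 each. Probesets below 0 numbered 92 (66.2%), beside 67.4% of all named probesets at level. In 7 of 10 members every probeset at level had one sign. The median over probesets and the gene-level value had the same sign in 9 members, Anxa2 being the exception, and differed by at most 0.14 except in Anxa9 (0.31). The 2 levels share their cultures, so their likeness says nothing of how repeatable the differences are.

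Single probesets that departed from their gene were few. The splicing index compares a probeset with its gene: it is the probeset's difference less the median of the others, computed where 5 or more were at level. Probesets with an index of 1 or more, or of −1 or less, were counted as departing. Of 139 annexin probesets with an index, 3 (2.16%) departed, beside 3.64% of all probesets with an index (2.02% upward and 1.62% downward). Probeset 4325558 of Anxa11 had 418 in TGF-beta cells and 460.2 in untreated cells, a difference of −0.14, while the 15 others lay between −2.21 and −1.16 (index 1.39). Probeset 5454515 of Anxa6 had 148 in TGF-beta cells and 353 in untreated cells (−1.25), while the 18 others had a median of 0.20 ± 0.38 (SD, index −1.45). Probeset 5453183 of Anxa3 had 196 in TGF-beta cells and 566 in untreated cells (−1.52), with the 14 others between −0.89 and −0.26 (index −1.10). With TGF-beta the probesets of Anxa6 and Anxa3 were below the level rule and passed it through the untreated array alone, so the rule favoured their lower values. The departing probesets of Anxa11 and Anxa3 were dimmer than the others of their genes, which reached at least 1064 (Anxa11) and 1081 (Anxa3) in 1 of the arrays, while another probeset of Anxa6 reached only 283. No annexin probeset departed when the 75th percentile replaced the median in the level rule, and without any such rule 8 did. Whether these probesets mark another transcript form was not tested.

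Within most members, the difference, taken with its sign, was higher in brighter probesets. When each member's probesets at level were split at the middle of their mean level, the brighter part of Anxa11 had a median of −1.30 and the dimmer part −1.77 (8 probesets each). In Anxa1 the brighter part was at −0.25 and the dimmer part at −0.64 (6 each), and in Anxa3 the values were −0.34 for the brighter and −0.68 for the dimmer part (7 each). The brighter part lay above the dimmer part in 7 of the 9 members with at least 6 probesets at level, the exceptions being Anxa5 (0.34 brighter, 0.48 dimmer) and Anxa8 (0.16 brighter, 0.26 dimmer). The same held in 86.0% of 7372 genes, or 89.4% of those with a median difference below 0 and 74.8% of those above 0. The pattern was thus common over the arrays and is not one of the annexins in particular. The Spearman correlation of difference with mean level was 0.775 over the 15 probesets of Anxa3, 0.764 over the 13 of Anxa1 and −0.343 over the 15 of Anxa5, for points that share 2 arrays and 1 gene. After removal of the curve of difference on level, a step chosen here after seeing the data, the gap between the brighter and the dimmer part was 0.34 in Anxa11, 0.29 in Anxa6, 0.27 in Anxa3, 0.19 in Anxa4 and 0.16 in Anxa1. It was 0.039 in Anxa7, 0.0036 in Anxa2, −0.16 in Anxa8 and −0.20 in Anxa5, beside a median of 0.12 over all genes. The share of genes with the brighter part above the dimmer part was then 73.7%. The part that probe brightness plays in the annexin differences was not tested beyond these values.

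**Figure D3:**
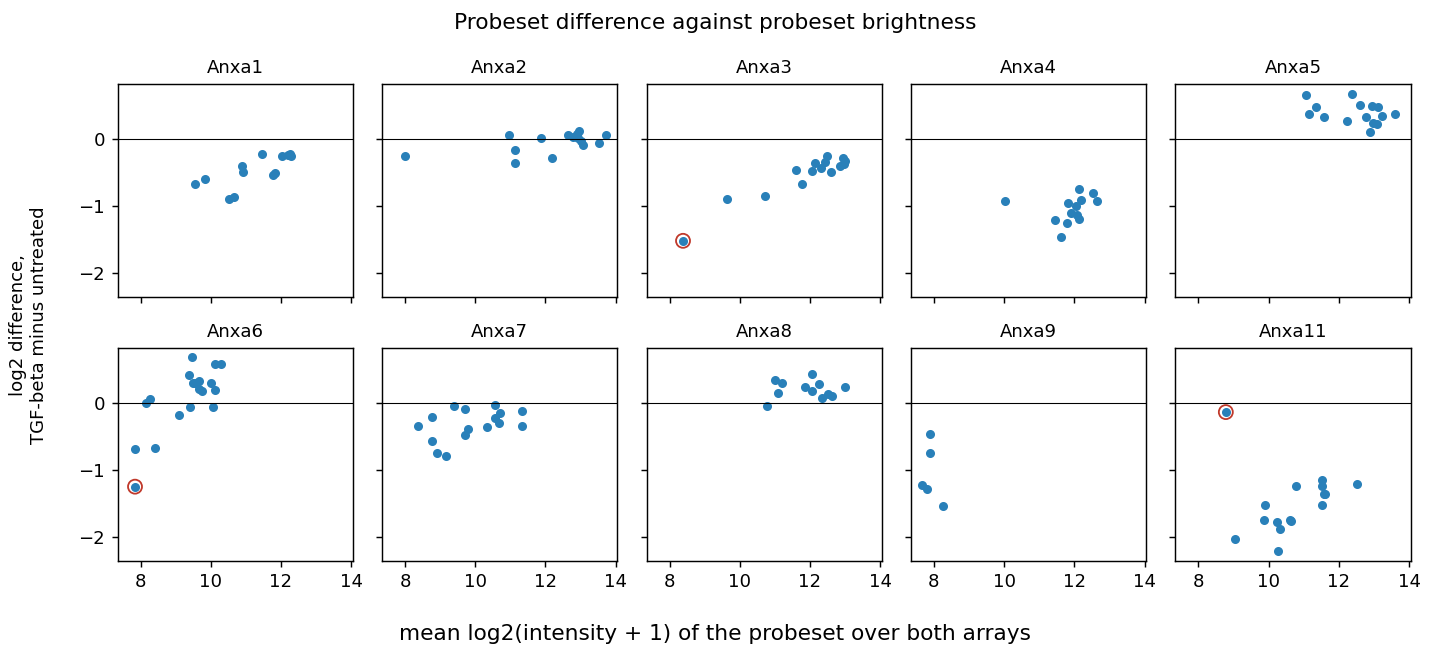
Log2 difference (TGF-beta minus untreated) of each probeset at level against its mean log2 intensity over both arrays, 1 panel per annexin, with departing probesets ringed in red. In Anxa1, Anxa3 and Anxa11 most dim probesets lie lower than bright ones, the ringed probeset of Anxa11 being an exception, whereas Anxa5 and Anxa8 show no such slope.

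The arrays also measured Anxa10 and Anxa13, annexins known from gastrointestinal epithelium, which the list of 10 does not hold. Anxa10 had 51.4 in TGF-beta cells, below the level rule, and 1178 in untreated cells (−4.49), and Anxa13 had 749 in TGF-beta cells and 2704 in untreated cells (−1.85). Both were lower than every listed member. With them, 4 of 12 annexins were past 2-fold on the lower side and the median was −0.45, so the list of 10 gives a milder account of the family than all 12.

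Partners of the annexins were read from lists at gene level. Of 11 genes at level on the S100 list, which holds small calcium-binding proteins and the binding protein S100pbp, 2 were at least 2-fold lower and none higher, with a median of −0.37. S100a10, the partner of Anxa2, had 8102 in TGF-beta cells and 8757 in untreated cells, a difference of −0.11 close to that of Anxa2. S100a6, a partner of Anxa11, had 8562 in TGF-beta cells and 11067 in untreated cells (−0.37), a smaller difference than that of Anxa11. S100a4, which also binds Anxa2, was at −0.58. The 2 lower members were S100g, the intestinal calcium carrier calbindin-D9k (−1.21), and S100a13 (−1.03), which had 2 of its 6 probesets higher. S100g was below the level rule with TGF-beta (119, against 277 in untreated cells), so its size is uncertain. After removal of the curve S100g (−1.02) kept its place past the rule and S100a13 (−0.69) did not.

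Among penta-EF-hand proteins and their partners, 1 of 5 at level was lower and 4 lay within 2-fold. The lower one was Gca, or grancalcin (319 in TGF-beta cells, 696 in untreated cells, −1.12, or −0.72 after removal of the curve). Pdcd6, a calcium sensor that binds Anxa7 and Anxa11, was at −0.16, sorcin (Sri), which also binds Anxa7, at 0.15 and the Pdcd6 partner Pdcd6ip at −0.19. Thus the direct partners of Anxa11 on these lists, S100a6 and Pdcd6, lay within 2-fold. Of 3 copines at level, which like annexins bind membranes with calcium, Cpne2 was lower (418 in TGF-beta cells, 2161 in untreated cells, −2.37). Its 17 probesets had a median of −2.47 ± 0.98 (SD), 2 of them higher. Cpne8 was at 0.22.

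All 4 membrane repair genes at level lay within 2-fold, with the calpain Capn2 at 0.41 and caveolin-1 (Cav1) at −0.47. The scaffold Ahnak was below level in both gene-level arrays (66.5 in TGF-beta cells, 98.1 in untreated cells). At exon level 3 of its probesets were at level, all lower, with a median of −0.11. Of the phospholipases A2, the target of Anxa1 regulation Pla2g4a was at 0.57, with all 19 probesets higher at 0.59 ± 0.18 (SD), while Anxa1 was at −0.44, and Pla2g6 was at −0.22. Of 5 cell-surface plasminogen genes at level, 1 was lower and 4 lay within 2-fold. The plasminogen receptor Plgrkt had 456 in TGF-beta cells and 934 in untreated cells (−1.03, or −0.66 after removal of the curve). The urokinase gene Plau had 644 in TGF-beta cells and 339 in untreated cells (0.92, or 1.33 after removal of the curve), with all 11 probesets higher. The tissue plasminogen activator gene Plat went the other way (−0.62, or −0.26 after removal of the curve), with all 18 probesets lower. Hmgb1 was at −0.91 and Plaur at 0.13. The lists thus held members on both sides of 0, while 72.3% of all genes at level lay below 0. On the values as deposited, all partner genes past 2-fold were lower, beside 8.70% lower and 2.28% higher genes over the arrays. Each list is too small to read a share from.

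**Figure D4:**
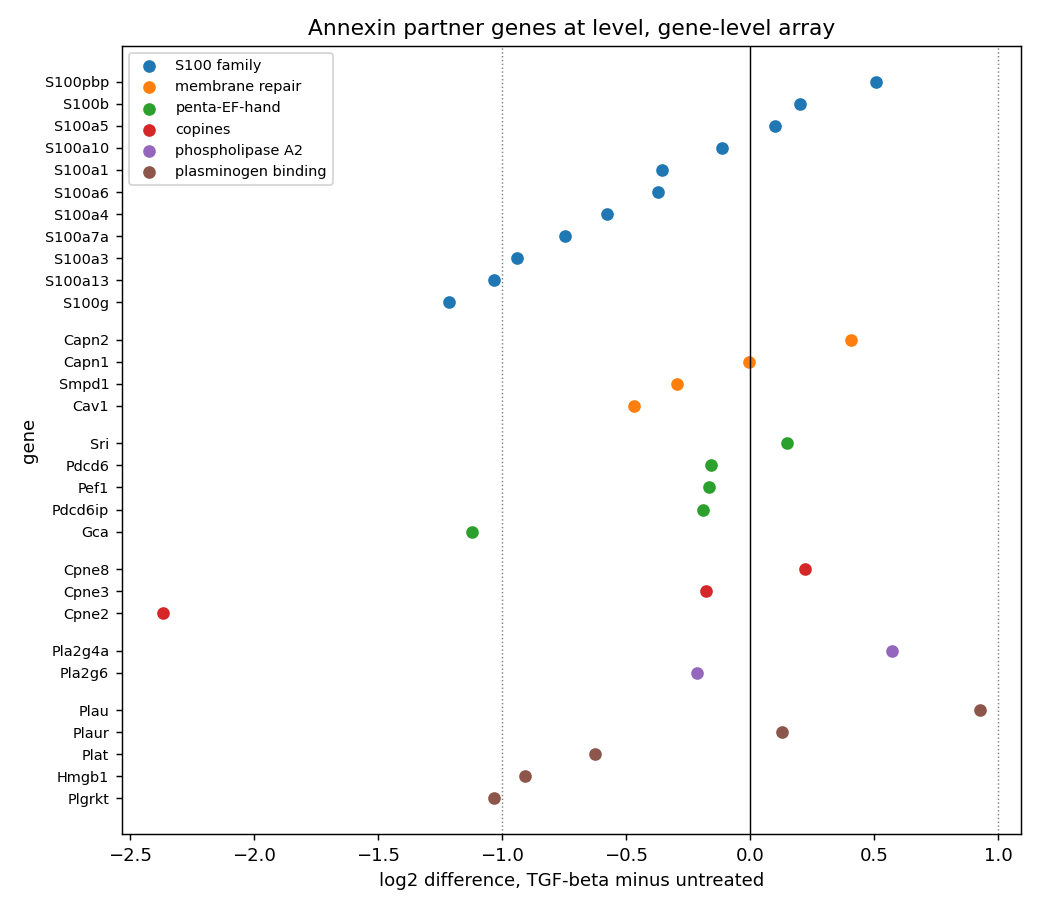
Gene-level log2 difference (TGF-beta minus untreated) of the partner genes at level, 1 point per gene, coloured by list, with dotted lines at 2-fold. The lower genes past 2-fold are S100g, S100a13, Gca, Cpne2 and Plgrkt, and Plau at 0.92 is the highest point.

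In the RefSeq gene order, 14 of the 20 protein-coding neighbours of the members were measured and 7 were at level. Of these 7, 3 were at least 2-fold lower, beside 8.70% of all genes at level, a count too small to read a share from: Aldh1a1 beside Anxa1 (164 in TGF-beta cells, 2396 in untreated cells, −3.86), Mindy1 beside Anxa9 (340.0 in TGF-beta cells, 989 in untreated cells, −1.54) and Ice2 beside Anxa2 (−1.05). Anxa1 (−0.44) and Aldh1a1 differed widely in size although they lie next to each other. Gmcl1 (−0.48) and Aak1 (−0.71), on the 2 sides of Anxa4, lay within 2-fold. These neighbours were named after their values were seen.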

How the data were processed

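RNA of NMuMG cells was measured on Affymetrix mouse exon arrays, 1 array per condition at each of 2 levels. The deposited values are intensities on a linear scale, which the authors had summarised for 23332 transcript clusters and 229581 probesets, from core probesets per the series' design text. No source used here names the background correction, normalization, software or genome build. Signal near the low end could not be told from background, and the number of arrays limits the precision. At gene level the deposited column of TGF-beta cells had a median of 120.1 and that of untreated cells 130.1. The gap was wider at exon level, with a median of 239.5 in TGF-beta cells and 296.6 in untreated cells.

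Genes were named from the platform annotation, with symbols updated through a RefSeq table (GRCm38.p6), and the highest cluster was kept for a symbol with several. Each annexin had 1 cluster, and no cluster or probeset joined an annexin with another gene. Values were taken as log2(intensity + 1). At level meant that the larger intensity reached the median of all values (124 for genes, 265 for probesets). The size rule was 2-fold. Differences, counts and the splicing index were computed in Python 3.11.15 with pandas 2.3.3 and tested on simulated data. The simulation of the index used bright probesets and large added changes, so it did not cover probesets as dim as the departing ones. Alternatives were centring (on the median difference of all clusters, or of all probesets), quantile normalization and a lowess curve (statsmodels 0.14.6, span 0.3). Other pseudocounts (0 and 16) and other level rules were also tried. All 10 members were named. From each partner list the 2 largest differences at level were named, besides S100a10, S100a6, S100a4, Pdcd6, Sri and Ahnak. S100a11 and Fpr2 were to be named as well, but neither was measured under a single symbol at gene level. Plat, Plaur and Hmgb1 were added after their values were seen. Of 13 membrane repair genes 7 were measured, and of 7 genes for Anxa1 receptors and phospholipase A2 only 3. Members and lists were chosen with earlier results of these data known.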

Additional observations from a re-analysis of the deposited data

How the results depend on the processing

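Of 184 recomputed values, 172 moved by less than the spread used as a yardstick and 12 moved by more. The yardstick was 1 SD between a gene's probesets, or 1.5 times for counts. No member past 2-fold changed sign. A gene with scattered probesets can shift far and still count among the 172. Anxa6, with an SD of 0.49, did so at gene level, going from 0.05 to 0.43 under quantile normalization. The 172 also hold changes of pseudocount, so their number is no measure of robustness. After centring, and after removal of the lowess curve, the number of annexins past 2-fold was 1, because Anxa4 came inside the rule. With all 12 annexins measured, an alternative chosen after seeing the data, the number was 4. Anxa7 was at −0.057 (gene level) and −0.093 (probesets) under quantile normalization, and at −0.048 and −0.083 without the curve. Anxa8 was at 0.40 (gene level) and 0.34 (probesets) after centring. The number of departing probesets was 8 without a level rule and 0 when the rule used the 75th percentile; the first admits dim probesets and the second leaves out all 3. The number of probesets past 2-fold ranged from 21 to 32, and the members' median from −0.45 to −0.19. The cause of the shifts with scaling was not tested. No replicate could be left out, with 1 array per condition. No paired analysis was possible because each condition had 1 array.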
